A study of Mus musculus with 18 samples.

Results

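The 41 genes described here encode proteins of mitosis, the phase of the cell cycle in which the copied chromosomes are parted between 2 daughter cells. They are a list of symbols, matched to the gene names of the expression tables, and the rule names them by symbol alone, though it was written with earlier results of these data known. All 41 were found among the 23929 genes listed, and all 41 passed the filter on low counts at each stage. By role they comprise 4 cyclin and CDK1 genes, 4 genes of chromosome structure, 2 mitotic kinases, 6 genes of spindle assembly, 7 of the kinetochore, 5 of the spindle checkpoint, 4 of the chromosomal passenger complex, 2 of the anaphase-promoting complex and 7 of cytokinesis.

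The study sequenced messenger RNA of Pitx1 knockout (Pitx1-/-) and wild-type mouse embryos, both of strain C57BL/6 per the labels, at stages E9.5, E11.5 and then E12.5 (days of embryonic age). Pitx1 encodes a homeodomain transcription factor of the hindlimb, and the title of the series names chondrogenesis and myogenesis as its subject. At E9.5 the tissue was the field of the hindlimb together with the trunk next to it, and at E11.5 and E12.5 it was the hindlimb. Each of the 6 groups held 3 libraries, and the labels do not say whether a library came from 1 embryo or from several.

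As cells enter mitosis, CDK1 bound to cyclin A or cyclin B phosphorylates many proteins, the chromosomes condense and a bipolar spindle forms. The kinetochores bind the chromosomes to the spindle, and the checkpoint holds the cell before anaphase until every kinetochore is attached, after which the anaphase-promoting complex marks cyclin B and securin for breakdown and the cell divides. Transcripts of these genes accumulate mainly in G2 and M phase and are widely used as a sign of dividing cells, and in the limb bud the undifferentiated mesenchyme divides while cells that form cartilage or muscle leave the cycle. In bulk tissue, a change in the share of dividing cells and a change in RNA per cell cannot be told apart.

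Depth per library over the genes used was 14361921 to 18553033 fragments in knockout and 20673064 to 40020115 in wild-type libraries at E9.5, 44986882 to 60672151 in knockout and 38770844 to 40973176 in wild-type libraries at E11.5, and 22361170 to 29993146 in knockout and 24290469 to 39397236 in wild-type libraries at E12.5. Depth thus went with genotype at E9.5 and E11.5, and its part in the results was not tested. Pitx1 itself, in RPKM (reads scaled to gene length and library size), lay below each wild-type library of the stage throughout the knockout, at 18.3 to 25.0 against 48.5 to 58.8 at E9.5, 17.3 to 23.2 against 109.0 to 138 at E11.5 and 10.8 to 13.4 against 44.6 to 114 at E12.5. Tbx4, a gene that marks the hindlimb, was present in every library, at 16.1 to 28.5 RPKM in knockout and 19.9 to 69.2 RPKM in wild-type libraries over the 3 stages. Wild-type replicate 3 at E12.5 stood apart, with the lowest Pitx1 of its group and the lowest value of its stage for 36 of the 41 mitosis genes.

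At E11.5 the mitosis genes were higher in the knockout as a group. Knockout over wild type, the log2 fold change was positive for 41 of 41 genes, with a median of 0.32 against -0.013 over all 14601 genes tested, and it ran from 0.066 for Bub3 to 0.54 for Ndc80. With an adjusted p below 0.05 (edgeR quasi-likelihood test, Benjamini-Hochberg over all genes), 15 of the 41 rose and none fell, or 36.6% of the list, where 0.945% of all genes tested rose and 1.01% fell. Every knockout library stood above every wild-type library for 37 of the 41 genes, which was so for 13.7% of all genes tested, and the 4 exceptions were Plk1, Bub3, Cdca8 and Cdc20. The reverse order held for none of the 41 and for 14.0% of all genes tested. The unadjusted p was below 0.05 for 37 of the 41, and for 22.2% of all genes tested. The count of 15 moved with single libraries: it was 21 without knockout replicate 1, 7 without knockout replicate 2, 0 without knockout replicate 3, 0 without wild-type replicate 1, 3 without wild-type replicate 2 and 22 without wild-type replicate 3, while the median stayed between 0.30 and 0.36. Without knockout replicate 3 the unadjusted p was below 0.05 for 34 genes, and without wild-type replicate 1 for 38. The shares of all genes called without single libraries are not given. DESeq2 called 34 of the 41 and limma on log2(RPKM + 1) called 8, all of them higher in the knockout, where 4.91% of all genes with an adjusted p in DESeq2 and 0.342% of those in limma were called higher.

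**Figure D1:**
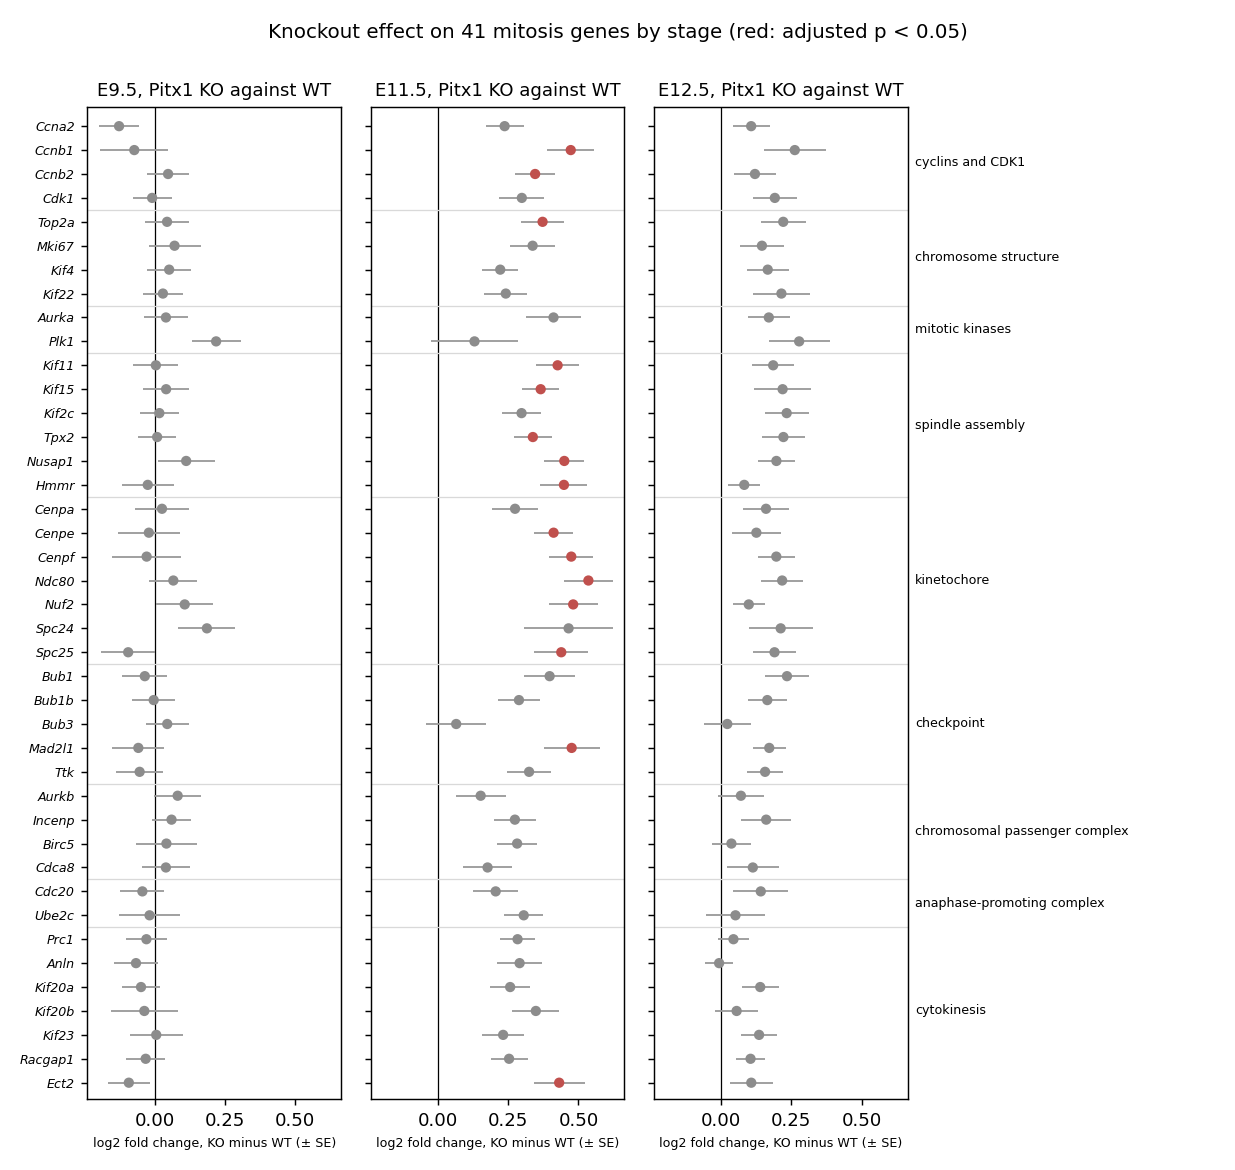
Log2 fold change of Pitx1 knockout over wild type (horizontal axis, points with standard error bars) for each of the 41 mitosis genes, ordered by role, in a panel per stage, with genes past an adjusted p of 0.05 in red. The 15 red points all lie at E11.5, where 41 of 41 points are to the right of 0, and at E9.5 the points scatter about 0.

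The promoters of these genes share short sequences. RefSeq promoters, from 250 bases before to 50 after the transcription start on GRCm38.p6, were matched by symbol for 35 of the 41 genes and gave 38 promoters. Ccna2, Aurkb, Incenp, Spc24, Tpx2 and Kif20a had no entry. The letters searched on both strands were TTTGAA or TTCGAA, forms of the cell cycle genes homology region (CHR) in promoters of G2 and M phase genes. CCAAT, the letters that the factor NF-Y reads, was searched as well. A CHR occurred in 32 of 38 promoters (84.2%), against 19.2% of the 32851 promoters in the reference, and CCAAT occurred in 29 of 38 (76.3%), against 37.4%. Both were present in 27 of 38 (71.1%), against 7.52%. TTCGCG, a form of the E2F motif that cannot overlay TTCGAA, occurred in 4 of 38 (10.5%), against 4.09%. The search for CHR letters depended on the window: in the 250 bases before the start alone they occurred in 16 of 38 promoters, against 17.1% of all, while CCAAT stayed at 29 of 38, against 33.8%. In 16 promoters, then, the CHR was found only when the first 50 transcribed bases were included. Ccnb1, Cenpe, Mad2l1, Nuf2 and Nusap1, all among the 15 that rose at E11.5, had neither TTTGAA nor TTCGAA in the window. The same held for Birc5, which did not pass. Other forms of the CHR were not searched.

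Stretches from 100 bases before to 30 after the start are shown for 5 genes that rose at E11.5 and carry both sequences. They are also shown for Cdc20, which carries both without passing the threshold, and for Ccnb1, which rose and has CCAAT without TTTGAA or TTCGAA. They are on GRCm38.p6, 5′ to 3′ on the strand of the gene, and the capitals mark TTTGAA or CCAAT on that strand and TTCAAA or ATTGG where the letters lie on the other strand.
Ccnb2 promoter (chr9:70421525-70421654, minus strand): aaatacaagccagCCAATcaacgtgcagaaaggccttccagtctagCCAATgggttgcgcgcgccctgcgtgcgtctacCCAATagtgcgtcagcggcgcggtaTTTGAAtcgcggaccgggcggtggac
Kif11 promoter (chr19:37376282-37376411, plus strand): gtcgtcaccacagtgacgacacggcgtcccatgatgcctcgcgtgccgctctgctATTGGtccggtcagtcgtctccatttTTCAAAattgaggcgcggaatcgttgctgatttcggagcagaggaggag
Cenpf promoter (chr1:189688057-189688186, minus strand): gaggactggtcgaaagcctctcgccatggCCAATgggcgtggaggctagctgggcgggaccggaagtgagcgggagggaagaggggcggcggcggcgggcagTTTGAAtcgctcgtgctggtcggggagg
Spc25 promoter (chr2:69206184-69206313, minus strand): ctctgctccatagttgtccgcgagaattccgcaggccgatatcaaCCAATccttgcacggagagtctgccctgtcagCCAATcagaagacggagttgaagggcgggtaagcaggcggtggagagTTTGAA
Hmmr promoter (chr11:40733408-40733537, minus strand): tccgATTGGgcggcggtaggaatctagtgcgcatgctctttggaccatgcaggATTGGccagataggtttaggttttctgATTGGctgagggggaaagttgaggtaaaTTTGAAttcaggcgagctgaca
Cdc20 promoter (chr4:118437314-118437443, minus strand): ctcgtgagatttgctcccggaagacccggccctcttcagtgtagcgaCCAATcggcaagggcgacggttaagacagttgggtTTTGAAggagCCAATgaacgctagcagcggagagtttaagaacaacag
Ccnb1 promoter (chr13:100786457-100786586, minus strand): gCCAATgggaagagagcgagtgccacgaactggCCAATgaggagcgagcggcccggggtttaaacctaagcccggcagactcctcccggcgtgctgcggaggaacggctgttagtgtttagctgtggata

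Cyclin A2 (Ccna2), which pairs with CDK2 in S phase and with CDK1 before mitosis, had 136, 143 and 139.9 RPKM in the E11.5 knockout libraries, against 113, 119.5 and 123 RPKM in the wild-type libraries. The 2 groups did not overlap, and the log2 fold change of 0.24 ± 0.067 (SE) missed the threshold (adjusted p = 0.0868, edgeR). The cyclin B genes, whose products activate CDK1 at mitotic entry, both rose. Ccnb1 measured 59.6, 59.5 and 67.0 RPKM in knockout libraries, against 42.8, 42.7 and 48.7 in wild-type libraries, and the lowest knockout value exceeded the highest wild-type value. Its log2 fold change was 0.47 ± 0.084 (adjusted p = 0.0262, edgeR). Ccnb2, at 123, 124 and 134 RPKM in knockout and 105, 95.4 and 99.8 RPKM in wild-type libraries, rose by 0.35 ± 0.072 on the log2 scale (adjusted p = 0.0432, edgeR). Cdk1, the kinase itself, had 109, 124 and 119.9 RPKM in knockout libraries, against 93.9, 90.5 and 102 in wild-type libraries, without overlap, with log2 fold change 0.30 ± 0.079, not past the threshold (adjusted p = 0.0737, edgeR). Ccnb1 and Ccnb2, like Kif4 and Kif22 below, have pseudogene copies in the reference annotation, so their values are uncertain to the extent that fragments were shared.

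Of the genes of chromosome structure, 1 of 4 passed. Top2a encodes topoisomerase II alpha, which untangles the sister chromatids, and had 261, 247 and 277 RPKM in knockout libraries, against 198, 196 and 213 RPKM in wild-type libraries at E11.5. It rose by 0.37 ± 0.076 on the log2 scale (adjusted p = 0.0411, edgeR), with no overlap. Mki67 encodes the Ki-67 antigen, a coat of the mitotic chromosomes, and measured 85.3, 73.0 and 85.4 RPKM in knockout and 63.6, 66.6 and 62.9 RPKM in wild-type libraries. Again the groups were apart, but the log2 fold change of 0.34 ± 0.081 missed the threshold (adjusted p = 0.0608, edgeR). Kif4 and Kif22, kinesins that ride on chromosome arms, had log2 fold changes of 0.22 ± 0.065 and 0.24 ± 0.077 and did not pass (adjusted p = 0.0930 and 0.116, edgeR).

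Neither mitotic kinase passed at E11.5, and they differed in how their libraries lay. Aurka, which encodes the Aurora A kinase of the spindle poles, was higher in each knockout library than in each wild-type library, with log2 fold change 0.41 ± 0.10 (adjusted p = 0.0595, edgeR). Plk1, the Polo-like kinase that acts from mitotic entry to cytokinesis, had 58.5, 61.2 and 77.5 RPKM in knockout libraries, against 71.2, 48.5 and 60.4 RPKM in wild-type libraries. These ranges overlapped, since wild-type replicate 1 exceeded 2 knockout libraries, and the log2 fold change was 0.13 ± 0.15 (adjusted p = 0.660, edgeR).

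Spindle assembly genes rose in 5 of 6 cases. Kif11, the kinesin that pushes the spindle poles apart, had 67.8, 70.1 and 74.3 RPKM in knockout libraries, against 49.4, 51.8 and 56.8 RPKM in wild-type libraries, and rose by 0.43 ± 0.076 on the log2 scale (adjusted p = 0.0276, edgeR). Kif15, a kinesin that can take over from Kif11, measured 41.2, 41.1 and 43.1 RPKM in knockout and 31.9, 33.9 and 31.6 RPKM in wild-type libraries, log2 fold change 0.37 ± 0.067 (adjusted p = 0.0295, edgeR). In both, the lowest knockout library lay above the highest wild-type library. Tpx2, whose product activates Aurora A and nucleates microtubules, had 94.5, 102 and 102 RPKM in knockout libraries, against 77.5, 78.7 and 80.1 RPKM in wild-type libraries, with log2 fold change 0.34 ± 0.067 (adjusted p = 0.0380, edgeR). Nusap1, a protein that bundles spindle microtubules, had the lowest adjusted p of the 41, 0.0218 (edgeR), at 79.4, 76.9 and 75.8 RPKM in knockout and 52.9, 58.3 and 58.7 RPKM in wild-type libraries and log2 fold change 0.45 ± 0.071. Hmmr, which encodes a hyaluronan receptor that also binds spindle microtubules, rose by 0.45 ± 0.084 (adjusted p = 0.0315, edgeR), with 34.5, 36.1 and 36.7 RPKM in knockout libraries, against 23.4, 27.1 and 28.1 RPKM in wild-type libraries. Kif2c, a kinesin that takes microtubules apart at their ends, had 0.30 ± 0.070 as its log2 fold change and did not pass (adjusted p = 0.0595, edgeR).

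The kinetochore list had the highest median log2 fold change of the 9 role lists at E11.5, 0.47, and 5 of its 7 genes rose. Ndc80, Nuf2, Spc24 and Spc25 encode the subunits of the NDC80 complex, the rod by which the kinetochore holds the microtubule. Ndc80 measured 47.7, 52.0 and 50.7 RPKM in knockout libraries, against 31.0, 35.1 and 37.8 RPKM in wild-type libraries, and rose by 0.54 ± 0.087 on the log2 scale (adjusted p = 0.0220, edgeR). Its partner Nuf2 had 46.4, 46.9 and 51.6 RPKM in knockout and 34.2, 31.7 and 37.95 RPKM in wild-type libraries, with log2 fold change 0.48 ± 0.087 (adjusted p = 0.0276, edgeR). They were 1.45-fold and 1.40-fold higher in the knockout, with every knockout library above the wild type. Spc25 measured 110.2, 127 and 127 RPKM in knockout libraries, against 86.4, 81.9 and 101 RPKM in wild-type libraries, and rose by 0.44 ± 0.10 (adjusted p = 0.0482, edgeR). Spc24 had a log2 fold change of similar size, 0.47 ± 0.16, but did not pass (adjusted p = 0.142, edgeR), and its wild-type libraries varied most of the 41 genes, with a coefficient of variation of 21.5%. 

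Cenpe, the kinetochore kinesin that carries chromosomes to the spindle equator, had 32.8, 30.8 and 31.6 RPKM in knockout libraries, against 22.7, 25.3 and 23.5 RPKM in wild-type libraries, and rose by 0.41 ± 0.070 on the log2 scale (adjusted p = 0.0247, edgeR). Cenpf, a protein of the outer kinetochore, measured 29.8, 28.5 and 31.9 RPKM in knockout and 21.2, 23.4 and 20.4 RPKM in wild-type libraries, log2 fold change 0.47 ± 0.078 (adjusted p = 0.0220, edgeR). Neither overlapped between the genotypes. Cenpa, the histone H3 variant that marks centromeres, had 0.27 ± 0.081 as its log2 fold change and did not pass (adjusted p = 0.0945, edgeR).

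In the checkpoint list, 1 of 5 genes rose. Mad2l1 encodes MAD2, which binds CDC20 and so holds back the anaphase-promoting complex, and had 85.7, 99.8 and 95.5 RPKM in knockout libraries, against 61.7, 63.5 and 76.9 RPKM in wild-type libraries. It rose by 0.48 ± 0.10 (adjusted p = 0.0432, edgeR). Bub1b, which encodes the checkpoint protein BUBR1, measured 77.2, 88.4 and 86.1 RPKM in knockout and 67.7, 66.7 and 71.8 RPKM in wild-type libraries, without overlap, with log2 fold change 0.29 ± 0.075, not past the threshold (adjusted p = 0.0706, edgeR). The kinases Bub1 and Ttk had log2 fold changes of 0.40 ± 0.092 and 0.32 ± 0.077 (adjusted p = 0.0567 and 0.0599, edgeR). Bub3, which brings BUB1 and BUBR1 to the kinetochore, had 98.7, 136 and 119 RPKM in knockout libraries, against 113, 108 and 116 RPKM in wild-type libraries. Its knockout libraries spread across the whole wild-type range, and the log2 fold change of 0.066 ± 0.11 was the smallest of the 41 (adjusted p = 0.755, edgeR).

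None of the 4 genes of the chromosomal passenger complex, which corrects faulty attachments and later acts at the midzone, passed at E11.5, though 4 of 4 had positive log2 fold changes, with a median of 0.23. Aurkb, its kinase, had 64.8, 65.5 and 65.8 RPKM in knockout libraries, against 63.1, 51.3 and 62.1 RPKM in wild-type libraries, and the knockout libraries lay just above the wild type (log2 fold change 0.15 ± 0.088, adjusted p = 0.336, edgeR). Birc5, which encodes survivin, measured 208, 233 and 228 RPKM in knockout and 184, 168 and 183 RPKM in wild-type libraries, with log2 fold change 0.28 ± 0.072 (adjusted p = 0.0671, edgeR). Incenp, the scaffold, and Cdca8, which encodes borealin, had log2 fold changes of 0.27 ± 0.074 and 0.18 ± 0.088 (adjusted p = 0.0752 and 0.268, edgeR).

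Cdc20, the activator of the anaphase-promoting complex, had 114, 123 and 132 RPKM in knockout libraries, against 115.4, 101 and 104 RPKM in wild-type libraries at E11.5. Knockout replicate 1 lay below wild-type replicate 1, so the groups overlapped, and the log2 fold change was 0.21 ± 0.081 (adjusted p = 0.172, edgeR). Ube2c, the ubiquitin-conjugating enzyme of the complex, had the highest level per length of the 41 genes, 343 ± 4.18 RPKM in knockout and 278 ± 14.5 RPKM in wild-type libraries (SD, n = 3 each). Its log2 fold change of 0.31 ± 0.069 missed the threshold (adjusted p = 0.0533, edgeR).

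Among the 7 cytokinesis genes, Ect2 rose. Its product activates the GTPase RhoA where the cell will pinch, and it had 48.4, 49.3 and 53.5 RPKM in knockout libraries, against 33.3, 37.2 and 41.8 RPKM in wild-type libraries, log2 fold change 0.43 ± 0.090 (adjusted p = 0.0438, edgeR). Prc1, which bundles the midzone microtubules, had 62.5, 63.3 and 63.5 RPKM in knockout and 51.3, 52.5 and 51.6 RPKM in wild-type libraries and narrowly missed the threshold, with log2 fold change 0.28 ± 0.063 (adjusted p = 0.0528, edgeR). Kif23 and Racgap1, which form the centralspindlin complex, Anln, which encodes the ring protein anillin, and the kinesins Kif20a and Kif20b had log2 fold changes of 0.23 to 0.35, and none of these 5 passed. In each of the 7 genes the knockout libraries stood above the wild type.

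**Figure D2:**
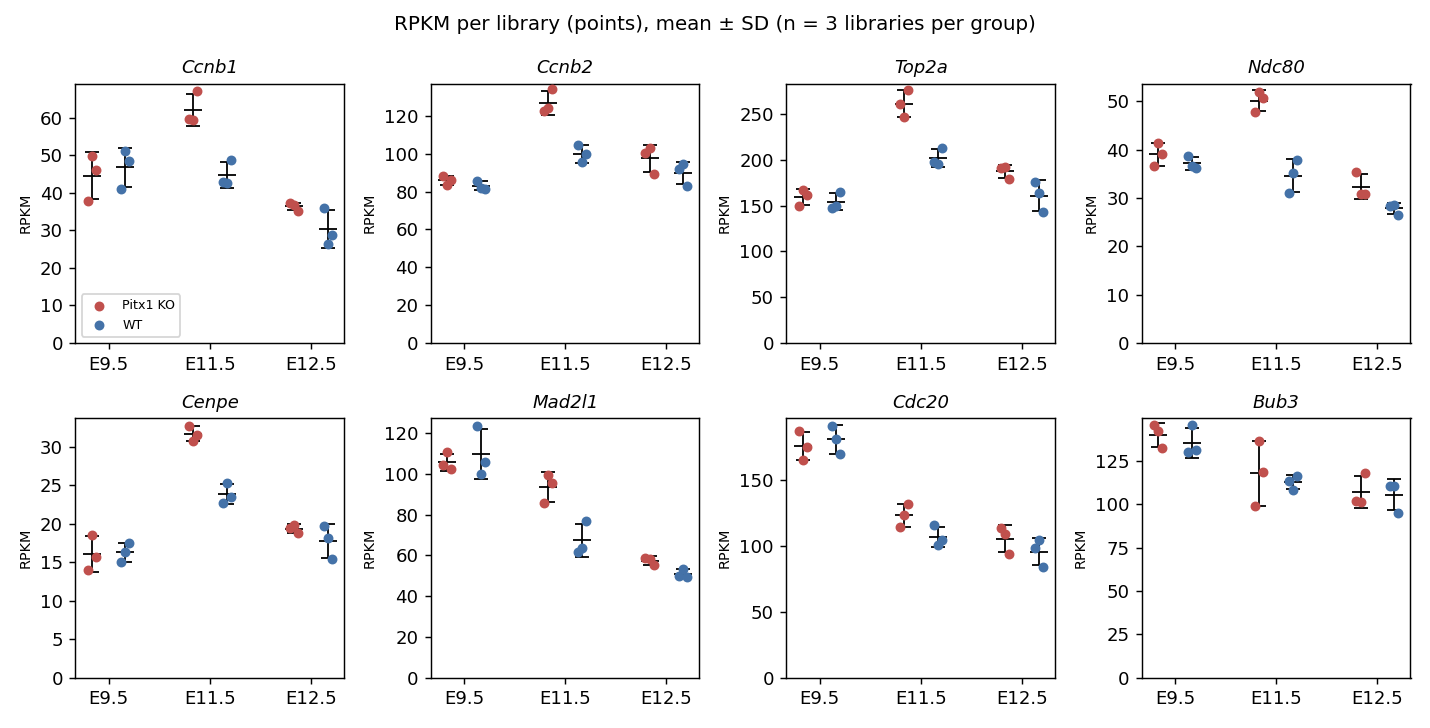
RPKM (vertical axis, from 0) of 8 mitosis genes in each library (points) with the mean and SD of 3 libraries (black), for Pitx1 knockout (red) and wild type (blue) at each stage on the horizontal axis. Ccnb1, Ccnb2, Top2a, Ndc80, Cenpe and Mad2l1 are separated between genotypes at E11.5, whereas Cdc20 and Bub3 overlap there, and RPKM was normalized within each stage.

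At E12.5 the same direction was seen at a smaller size. The log2 fold change of knockout over wild type was positive for 40 of the 41 genes, with a median of 0.16 against -0.00046 over all 14494 genes tested, and no gene passed with edgeR. The unadjusted p was below 0.05 for 15 of the 41, and for 15.1% of all genes tested, and DESeq2 and limma also called 0. Of all genes tested, 0.0% rose and 0.0138% fell. Every knockout library exceeded every wild-type library for 17 of 41 genes, which was so for 11.4% of all genes tested (the reverse for 0 of the 41 and 10.3% of all), and the 17 included Cdk1, Top2a, Aurka, Tpx2, Nusap1, Cenpf, Ndc80, Nuf2, Bub1 and Mad2l1. These values moved with single libraries. The 15 genes with an unadjusted p below 0.05 became 2 without knockout replicate 1, 1 without knockout replicate 2 and 8 without wild-type replicate 3, and between 13 and 16 without each other library. Without wild-type replicate 3 the median was 0.096 and 37 genes had positive fold changes, against 40 without any other library.

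The highest log2 fold changes at E12.5 were those of Plk1, Ccnb1 and Bub1. Plk1 had 55.5, 60.3 and 48.8 RPKM in knockout libraries, against 46.7, 50.2 and 39.0 RPKM in wild-type libraries (log2 fold change 0.28 ± 0.11, adjusted p = 0.307, edgeR). Ccnb1 measured 37.2, 36.7 and 35.3 RPKM in knockout and 36.0, 26.3 and 28.8 RPKM in wild-type libraries (log2 fold change 0.26 ± 0.11, adjusted p = 0.320, edgeR). Wild-type replicate 2 of Plk1 and replicate 1 of Ccnb1 lay within the knockout range. Bub1, at 39.4, 38.9 and 36.1 RPKM in knockout and 36.0, 30.4 and 30.9 RPKM in wild-type libraries, was separated by the small gap between 36.1 and 36.0 (log2 fold change 0.23 ± 0.077, adjusted p = 0.261, edgeR). At the other end, Anln had 25.1, 25.3 and 24.0 RPKM in knockout libraries, against 25.1, 24.5 and 25.2 RPKM in wild-type libraries, and the log2 fold change was -0.0064 ± 0.051 (adjusted p = 0.964, edgeR). Bub3 and Birc5 were next, at 0.023 ± 0.084 and 0.037 ± 0.069 (adjusted p = 0.921 and 0.824, edgeR).

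At E9.5 the genotypes were not separated for any of the 41 genes. The log2 fold change was positive for 22 and negative for 19, with a median of 0.0058 against -0.0044 over all 13804 genes tested, and it ran from -0.13 ± 0.072 for Ccna2 to 0.22 ± 0.087 for Plk1. No gene passed with edgeR, DESeq2 or limma, and the unadjusted p was below 0.05 for 1 of the 41, Plk1, and for 4.01% of all genes tested. Of all genes tested, 0.0% rose and 0.0217% fell. For no mitosis gene did every knockout library lie above every wild-type library, which was so for 4.7% of all genes tested, or below, which was so for 4.59%. Ccna2 had 128, 129 and 137 RPKM in knockout libraries, against 148, 146 and 135 RPKM in wild-type libraries (adjusted p = 0.999, edgeR). For Plk1 the values were 96.7, 99.3 and 85.6 RPKM in knockout and 75.4, 79.4 and 86.7 RPKM in wild-type libraries (adjusted p = 0.999, edgeR). In both genes the groups overlapped through replicate 3 of each genotype. The libraries of a group agreed closely for these genes: the median coefficient of variation over the 41 was 5.11% in knockout and 6.14% in wild-type libraries at E9.5, against 9.97% and 12.9% over all genes tested. That set was not matched to the 41 for abundance.

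Between E11.5 and E12.5, both hindlimb by label, the mitosis genes fell in both genotypes. In the knockout 39 of 41 genes fell and none rose (edgeR, 12 libraries fitted together), with a median log2 fold change of E12.5 over E11.5 of -0.48, where 20.4% of all 15324 genes tested rose and 21.1% fell. In the wild type 34 of 41 fell and none rose, with a median of -0.32, where 17.1% of all genes tested rose and 16.3% fell. Of the 41, 33 fell in both genotypes, which of all genes tested could hold for at most 16.3%, the share that fell in the wild type. Aurka, Birc5, Cdc20, Prc1, Kif23 and Racgap1 passed in the knockout and not in the wild type, Plk1 passed in the wild type and not in the knockout, and Bub3 passed in neither, which by itself shows no difference between the genotypes.

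Across stages, levels are given as TMM-scaled CPM, fragments per library size, which share 1 scaling over the 18 libraries. Bub1 had the steepest drop of the 41 in each genotype, with 168, 165 and 153 CPM at E12.5, against 279, 307 and 322 CPM at E11.5, in the knockout and 152, 128 and 131 CPM at E12.5, against 222, 209 and 257 CPM at E11.5, in the wild type. It fell by 0.92 ± 0.089 on the log2 scale in the knockout (adjusted p = 6.98e-05, edgeR) and by 0.74 ± 0.088 in the wild type (adjusted p = 3.39e-04, edgeR). Ccnb1 had 80.7, 79.4 and 76.5 CPM at E12.5, against 135, 135 and 152 CPM at E11.5, in the knockout, and fell by 0.85 ± 0.10 (adjusted p = 1.11e-04, edgeR). In the wild type Ccnb1 had 77.8, 56.6 and 62.5 CPM at E12.5, against 96.8, 96.5 and 110.2 CPM at E11.5, and fell by 0.63 ± 0.10 (adjusted p = 9.02e-04, edgeR). For both genes every E12.5 library lay below every E11.5 library of its genotype. Ect2 fell by 0.86 ± 0.088 in the knockout and 0.53 ± 0.088 in the wild type (adjusted p = 7.13e-05 and 0.00107, edgeR), and Cenpf by 0.82 ± 0.074 and 0.53 ± 0.074 (adjusted p = 6.98e-05 and 5.39e-04, edgeR). The smallest changes in the knockout were those of Bub3, Racgap1 and Kif23, at log2 fold changes of -0.22, -0.24 and -0.26.

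The knockout effect was smaller at E12.5 than at E11.5 for 40 of the 41 genes, with a median difference of -0.18 on the log2 scale, and no gene passed the test of that difference with edgeR or DESeq2. Over all genes tested, 0.00653% passed with edgeR, 1 in number. The unadjusted p was below 0.05 for 15 of the 41, and for 10.3% of all genes tested, and the 15 became 9 without wild-type replicate 1 of E12.5 and 11 to 22 without each other library. The largest differences were those of Nuf2, Hmmr and Ect2, at -0.39 ± 0.10, -0.38 ± 0.10 and -0.33 ± 0.12 (adjusted p = 0.294, 0.308 and 0.413, edgeR). Plk1 alone went the other way, at 0.14 ± 0.21 (adjusted p = 0.852, edgeR).

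From E9.5 to E11.5 the 41 genes did not move together. In the knockout 19 rose and 5 fell, with a median log2 fold change of E11.5 over E9.5 of 0.19, where 25.0% of all 15372 genes tested rose and 25.5% fell. In the wild type 6 rose and 19 fell, with a median of -0.20, where 28.3% rose and 27.6% fell. The tissue differs by label between these stages, so stage and tissue cannot be told apart. The 6 genes that rose in the wild type, Ccnb2, Top2a, Mki67, Kif4, Nusap1 and Cenpe, also rose in the knockout, and the 5 that fell in the knockout, Plk1, Bub3, Aurkb, Cdca8 and Cdc20, also fell in the wild type. Of all genes tested, at most 25.0% could rise and at most 25.5% fall in both genotypes, the shares in the knockout. The true shares are not given, so these overlaps are not read as a trait of the 41.

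Cenpe and Nusap1 rose most in the knockout. Cenpe had 121, 158 and 134 CPM at E9.5, 268, 253 and 258 CPM at E11.5 and 153, 155 and 147 CPM at E12.5 in the knockout. In the wild type it had 128, 141 and 149.7 CPM at E9.5, 186, 207 and 192 CPM at E11.5 and 154, 141 and 121 CPM at E12.5. In each genotype Cenpe was thus highest at E11.5, with no overlap with either other stage, though the tissue at E9.5 differed by label. The log2 fold change of E11.5 over E9.5 was 0.91 ± 0.095 in the knockout and 0.48 ± 0.094 in the wild type (adjusted p = 3.92e-06 and 6.35e-04, edgeR). For Nusap1 it was 0.90 ± 0.086 in the knockout and 0.57 ± 0.086 in the wild type (adjusted p = 1.91e-06 and 8.19e-05, edgeR). Mki67 rose by 0.75 ± 0.089 in the knockout and 0.48 ± 0.088 in the wild type (adjusted p = 1.29e-05 and 4.01e-04, edgeR).

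Cdc20 was lower at each later stage, though the tissue at E9.5 differed by label. It had 335, 293 and 310.1 CPM at E9.5, 194, 209.7 and 223 CPM at E11.5 and 184, 176 and 152 CPM at E12.5 in the knockout. In the wild type it had 340.2, 324 and 302 CPM at E9.5, 195, 171 and 176 CPM at E11.5 and 159, 168 and 137 CPM at E12.5. It fell between E9.5 and E11.5 by 0.58 ± 0.080 on the log2 scale in the knockout and 0.83 ± 0.081 in the wild type (adjusted p = 4.48e-05 and 1.61e-06, edgeR). The log2 fold change of E12.5 over E11.5 was -0.30 ± 0.093 in the knockout, which passed, and -0.23 ± 0.093 in the wild type, which did not (adjusted p = 0.0186 and 0.0731, edgeR). Mad2l1, whose product restrains CDC20, had 100.5, 103 and 125 CPM at E11.5, against 212, 173 and 181 CPM at E9.5, in the wild type, and fell by 0.78 ± 0.10 (adjusted p = 2.12e-05, edgeR). In the knockout its log2 fold change was -0.25 ± 0.10 and did not pass (adjusted p = 0.0525, edgeR).

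Hmmr passed in opposite directions, with 137, 144 and 146 CPM at E11.5, against 114, 132 and 119 CPM at E9.5, in the knockout and 93.0, 108 and 112 CPM at E11.5, against 133, 119 and 119 CPM at E9.5, in the wild type. The log2 fold change was 0.23 ± 0.088 in the knockout (adjusted p = 0.0440, edgeR) and -0.25 ± 0.088 in the wild type (adjusted p = 0.0280, edgeR). The difference between these changes was 0.47 ± 0.12 and did not pass (adjusted p = 0.139, edgeR). Over the list, the knockout effect was larger at E11.5 than at E9.5 for 40 of the 41 genes, with a median difference of 0.32. No gene passed the test of that difference with edgeR, where 0.026% of all genes tested did. With DESeq2 12 passed, each with a larger effect at E11.5, as did 1.54% of all genes in that direction. The unadjusted p was below 0.05 for 30 of the 41, and for 15.2% of all genes tested. The highest differences were those of Ccnb1, Mad2l1 and Spc25, at 0.54 ± 0.15, 0.53 ± 0.14 and 0.53 ± 0.14 (adjusted p = 0.156, 0.143 and 0.139, edgeR). Both tests of a difference between stages use the E11.5 libraries.

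**Figure D3:**
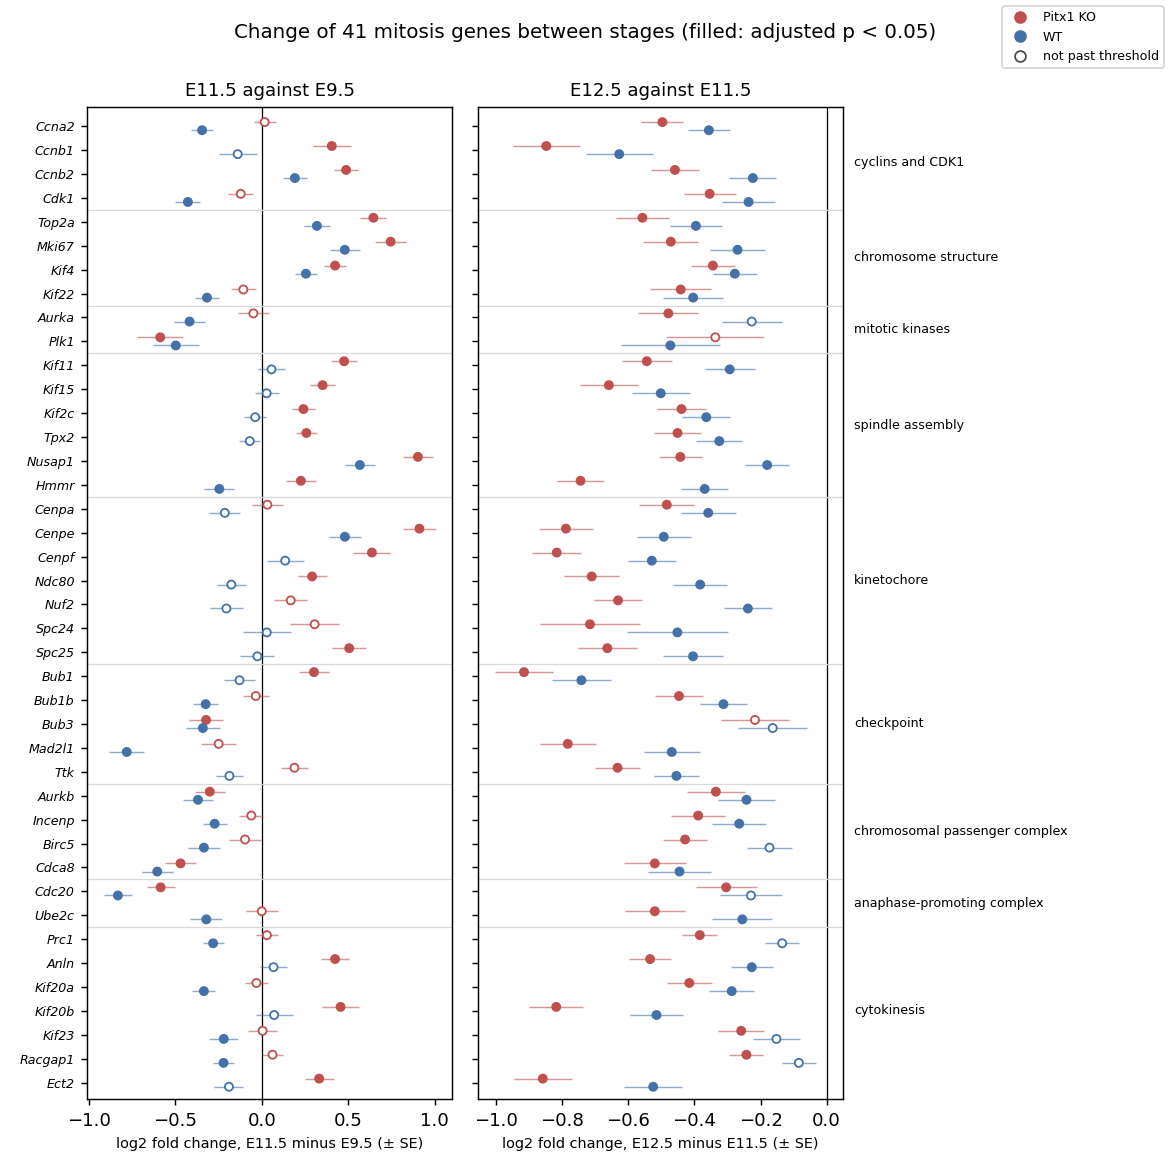
Log2 fold change between stages (horizontal axis, points with standard error bars) of the 41 mitosis genes in Pitx1 knockout (red) and wild type (blue), with filled points past an adjusted p of 0.05. All points of E12.5 against E11.5 lie left of 0, and those of E11.5 against E9.5 lie on both sides, the knockout point to the right of the wild-type point for 40 of 41 genes.

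Other genes of the cell cycle were described from lists beside the 41. Of 97 further mitosis genes, 86 had positive log2 fold changes at E11.5 and 18 rose in the knockout, or 18.6%, with a median of 0.28, where 0.945% of all genes rose. The 18 became 4 without knockout replicate 2, 0 without knockout replicate 3, 0 without wild-type replicate 1, 1 without wild-type replicate 2 and 23 without either other library, while the median stayed between 0.24 and 0.31. The 18 included Sgol2, which guards centromere cohesion in meiosis and mitosis, at 0.45 ± 0.074 (adjusted p = 0.0229, edgeR), and Dlgap5, a spindle protein, at 0.41 ± 0.071 (adjusted p = 0.0247, edgeR). Of 47 S phase genes, 45 were positive and 2 rose, or 4.26%, with a median of 0.21. The count was 8 without knockout replicate 1 or without wild-type replicate 3, and 0 without each other library. The 2 were Prim1, a primase subunit, at 0.43 ± 0.087 (adjusted p = 0.0395, edgeR), and Pola1, the catalytic subunit of DNA polymerase alpha, at 0.35 ± 0.076 (adjusted p = 0.0491, edgeR). Of 12 genes of cell cycle exit, such as the CDK inhibitors, 7 were positive and 5 negative, with a median of 0.033. Gas1, named for growth arrest, fell, at -0.30 ± 0.063 (adjusted p = 0.0432, edgeR), a call lost without each library but wild-type replicate 3. Of all genes tested, 1.01% fell. At E12.5 no gene of the 3 lists passed with edgeR, and the medians were 0.13, 0.11 and -0.17. With DESeq2 1 further mitosis gene and 1 gene of cell cycle exit passed there, and the share over all genes is not given.

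Between E9.5 and E11.5 the medians of the S phase list and the 41 differed in sign in the knockout but not in the wild type. For the 41 they were 0.19 in the knockout and -0.20 in the wild type. Of the 47 S phase genes, 24 fell and 5 rose in the knockout, with a median of -0.29. Of all genes tested, 25.5% fell and 25.0% rose there. In the wild type 33 fell and 1 rose, with a median of -0.46, where 27.6% of all genes tested fell and 28.3% rose. Summed over the list, S phase genes were lower at each later stage, with means of 10149, 8939 and 6855 CPM by stage, E9.5 to E12.5, in the knockout and 10210.2, 7803 and 6279.5 CPM in the wild type. Summed over the 41 mitosis genes, the means were 9080.3, 10569.6 and 7445 CPM by stage, E9.5 to E12.5, in the knockout and 9019, 8391 and 6667 CPM in the wild type. The sum of the mitosis genes was thus highest at E11.5 in the knockout and at E9.5 in the wild type. For both lists the tissue at E9.5 differed by label, so stage and tissue cannot be told apart. At E11.5 the mitosis sum was 10229, 10508 and 10972 CPM in knockout libraries, against 8314, 8164 and 8695 CPM in wild-type libraries, without overlap.

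**Figure D4:**
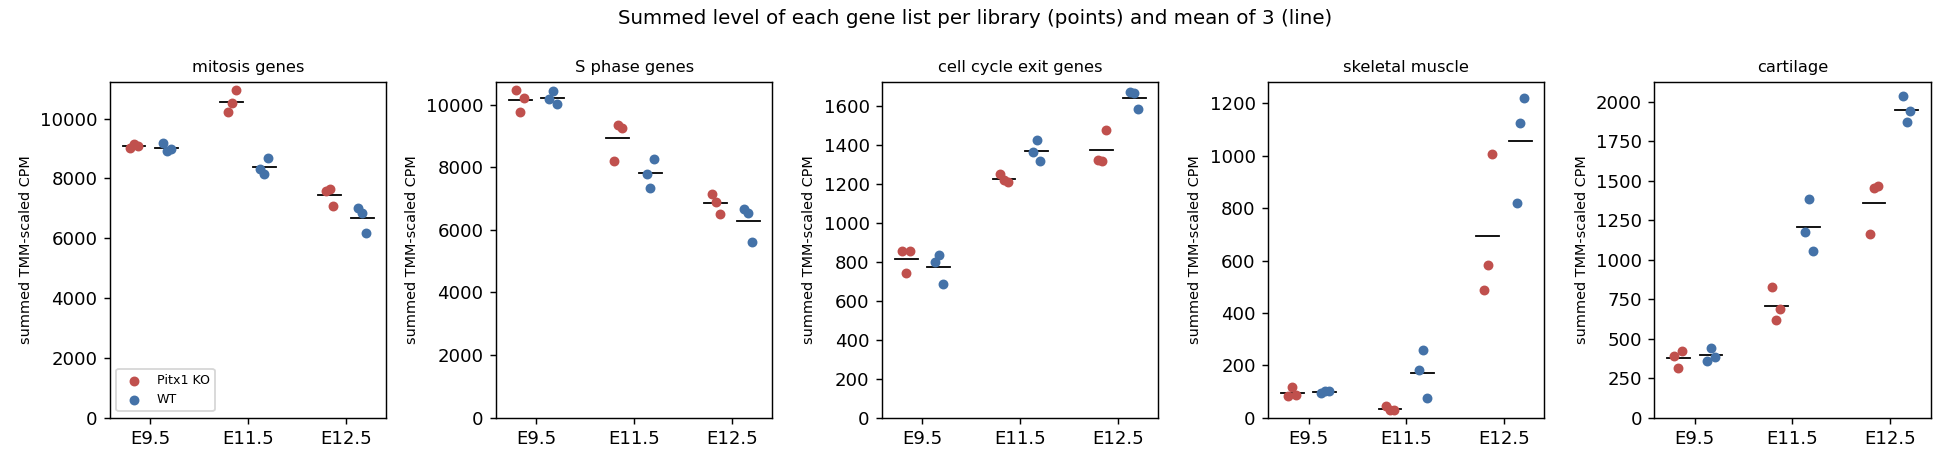
Summed TMM-scaled CPM (vertical axis, from 0) of 5 gene lists in each library (points) with the mean of 3 (line), for Pitx1 knockout (red) and wild type (blue) at each stage. At E11.5 the mitosis sum is higher in the knockout without overlap, and the sums of the cell cycle exit, skeletal muscle and cartilage lists are lower without overlap. The S phase sums overlap there. Sums weigh abundant genes most: 7 of the 12 cell cycle exit genes had positive log2 fold changes at E11.5, with a median of 0.033.

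Markers of other cells moved with genotype at E11.5, and their part in the difference of the mitosis genes was not tested. Of 10 skeletal muscle markers, 0 had positive log2 fold changes and 1, Myl1, fell, with a median of -2.06 (5 fell without wild-type replicate 3, and 0 without knockout replicates 2 or 3 or wild-type replicates 1 or 2), and their sum was 28.6 to 45.6 CPM in knockout libraries, against 75.9 to 257 CPM in wild-type libraries. Of 8 cartilage markers, 1 was positive and 4 fell, among them Sox9, Col2a1 and Matn1, with a median of -0.95 (2 fell without knockout replicate 2, and 0 without knockout replicate 3 or wild-type replicates 1 or 2) and sums of 617 to 825 CPM in knockout libraries, against 1055 to 1384 CPM in wild-type libraries. Of all genes tested at E11.5, 1.01% fell with edgeR. Macrophage markers summed to 23.7 to 29.1 CPM in knockout libraries, against 32.0 to 40.7 CPM in wild-type libraries, with 1 of 11 positive, and surface ectoderm markers to 395 to 422 CPM in knockout libraries, against 303 to 378 CPM in wild-type libraries, with 9 of 9 positive, and no gene of either list passed with edgeR, against 2 and 4 with DESeq2. DESeq2 called 4.91% of all genes with an adjusted p higher, and the share called lower is not given. Endothelial markers were positive in 1 of 8, with a median of -0.073, and neural markers in 1 of the 6 tested, with a median of -0.15, and none of them passed. The sums of red blood cell markers overlapped, at 4351 to 8886 CPM in knockout and 4375 to 10547 CPM in wild-type libraries. None of the muscle, cartilage, macrophage, red blood cell, endothelial or ectoderm markers was at 0 in all libraries of an E11.5 group, while the neural gene Neurog2 was at 0 in both genotypes and Pax6 in the wild type.

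The differences in markers at E12.5 were like those at E11.5 only in part, and their part in the mitosis genes was not tested. Surface ectoderm markers were positive in 2 of 9, with a median log2 fold change of -0.17. Macrophage markers were positive in 0 of 11, and none passed. Their sum was 40.6 to 51.6 CPM in knockout libraries, against 56.3 to 71.0 CPM in wild-type libraries. Skeletal muscle markers were positive in 1 of 10, with a median of -0.47. The cartilage sum was 1160.5 to 1465 CPM in knockout libraries, against 1871 to 2035 CPM in wild-type libraries, with 1 of 8 markers positive and a median log2 fold change of -0.97. The skeletal muscle sum was 489 to 1005 CPM in knockout libraries, against 818 to 1221 CPM in wild-type libraries, and overlapped. Between E11.5 and E12.5, 9 of 10 muscle markers and 7 of 8 cartilage markers rose in the knockout, where 20.4% of all genes tested rose. In the wild type 9 of 10 and 6 of 8 rose, where 17.1% of all genes tested rose. A link to the fall of the mitosis genes was not tested. At E9.5, where the median of the mitosis genes was near 0, the cartilage sum was 312 to 423 CPM in knockout libraries, against 359 to 442 CPM in wild-type libraries, and overlapped. Of the 6 cartilage markers tested there, 4 were positive, with a median log2 fold change of 0.24, and none passed. Red blood cell markers were positive in 9 of 9 at E9.5 and neural markers in 8 of 9. Their medians were 0.38 and 0.36, and none passed.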

How the data were processed

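RNA was sequenced from 18 libraries, made per the labels' protocols from total RNA with a stranded TruSeq mRNA kit. Per the submitters' processing notes, the tools were TopHat2, Cuffdiff and FastQC and the mouse build was mm9. Annotation and strandedness of counting are not stated in the labels, so overlapping genes may share fragments. Each stage has its own table. Per the file headers, raw fragments are estimated counts per gene and library, and the RPKM values were scaled by the authors to gene length and library size. Both are listed by genotype and replicate, and replicates 0 to 2 of a table were read as 1 to 3. RPKM was compared only within a stage.

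Of 23929 genes, 23919 were used, since date-like names that stand for several genes and genes with no estimate were left out. Fragment counts were rounded, and 1.79% were not whole (tolerance 1e-06). All replicate pairs differed by more than counting noise (chi-square per degree of freedom 8.26 or more). Genotypes were compared within a stage (6 libraries) and stages in pairs (12 libraries) with edgeR 4.0.16 in R 4.3.3, using TMM, filterByExpr, the robust quasi-likelihood F test and Benjamini-Hochberg adjustment over all genes at 0.05, and fold changes on the log2 scale. SE were derived from the F statistic. Levels across stages are TMM-scaled CPM over the 18 libraries. The labels do not say that replicates are separate embryos, so p-values reflect library-to-library spread, which may be technical. The deposited counts limit precision by depth, and no interval beyond that spread is given.

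Alternatives were RLE size factors, no filter, DESeq2 1.42.0, limma 3.58.1 on log2(RPKM + 1) and log2(RPKM + 0.1), all 18 libraries in 1 fit, a replicate block and leaving out each library. Same-numbered libraries of the 2 genotypes did not deviate together, with r between -0.39 and 0.23 within a stage, so the numbers were not taken as pairs. The main edgeR fits and the DESeq2 fits were run on simulated counts with known changes, each checked on a single comparison. The other alternatives were not simulated. Values per library are given for members past the threshold between genotypes, for 12 set members and for the 3 highest and 3 lowest fold changes of a comparison, though not every such value is printed, and up to 3 genes per direction are named from each other list. The members and lists were chosen with earlier results of these data known. Promoter letters were searched in RefSeq sequences on GRCm38.p6, and no mm9 coordinate was used.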

Additional observations from a re-analysis of the deposited data

How the results depend on the processing

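The direction of each median over the mitosis genes stayed the same at E11.5, at E12.5 and between stages under every alternative run, and no call reversed. At E9.5 the median lay between -0.013 and 0.028 without single libraries. The count of genes that rose at E11.5, 15, was 23 with no filter, 34 with DESeq2, 28 with all 18 libraries in 1 fit and 8 with limma on log2(RPKM + 1) or log2(RPKM + 0.1), and between 0 and 22 without single libraries. With the replicate number as a block it was 1, Ndc80, and at E12.5 the block gave 1, Plk1, in place of 0. At E11.5 the block also gave 0 in place of 18 further mitosis genes and 0 in place of 2 S phase genes, which DESeq2 put at 46 and 13, limma on log2(RPKM + 1) at 3 and 0, no filter at 27 and 6 and all 18 libraries at 33 and 7. Calls over all genes moved as well: 0.945% were higher in the main fit, 4.91% with DESeq2 and 0.342% with limma on log2(RPKM + 1). The shares for the other settings are not given, so whether mitosis calls moved more than those of all genes is not known there. The block left the counts of mitosis genes between stages within 1.5 times. The test of the difference of the knockout effect between E11.5 and E9.5, with 0 genes by edgeR, gave 12 with DESeq2. Counts without single libraries were 38 to 40 of 41 in the knockout and 24 to 33 in the wild type for E12.5 against E11.5, and 20 to 26 in the knockout and 22 to 28 in the wild type for E11.5 against E9.5. The promoters with CHR letters numbered 16 in place of 32 in the 250 bases before the start alone. The cause of these shifts was not tested. Fold changes of the mitosis genes between genotypes are small, at most 1.45-fold, and with 3 libraries a group an adjusted p near 0.05 changed its side of the threshold with single libraries.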
